A study of Mus musculus with 144 samples.

Results

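The 10 genes described here are a set of heme and drug-metabolism genes of the mouse liver, taken by symbol from the deposited table of 51912 genes. They are Alas1, Alad, Uros, Cpox and Fech (enzymes of heme synthesis), Hmox1 (heme breakdown), Por (the electron donor of the cytochromes P450), and the receptors Nr1i2 (PXR), Nr1i3 (CAR) and Ahr. All 10 were found and all 10 passed the filter on low counts in each fit, so 10 of 10 members are covered. Liver RNA was read by 3′ mRNA sequencing, which counts the ends of transcripts next to the poly(A) tail, in 144 libraries. Wild-type mice gave 3 series, of total, nuclear and polysomal RNA, and mice labelled Bmal1-/- gave a series of total RNA. Each series had 6 libraries at zeitgeber times (ZT, hours after lights on) 2, 6, 10, 14, 18 and 22. Every group came from male C57BL/6J mice kept in 12 h of light and 12 h of darkness with unrestricted food. Nuclei were isolated from frozen tissue through a sucrose cushion, and polysomes from a sucrose gradient of liver crushed in a buffer with cycloheximide. The labels do not give the animals' age, nor which part of Bmal1 was altered, nor whether the libraries of a group come from separate animals, so p-values measure the spread between these libraries.

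Heme is built in alternating steps inside and outside the mitochondrion. ALAS1 makes the first intermediate and is the rate-limiting step in the liver, ALAD, UROS and CPOX act on the intermediates, and FECH inserts the iron. Most hepatic heme goes to cytochromes P450, which receive electrons from POR and whose genes are switched on by PXR and CAR after exposure to drugs and bile acids and by AHR after exposure to aromatic hydrocarbons. Heme oxygenase 1 opens the heme ring and is induced by stress. BMAL1 (gene symbol Arntl in the table) is a core activator of the circadian clock and binds E-boxes.

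The genes lie as follows in GRCm38.p6 (RefSeq). Alas1 is at chr9:106233455-106247954 on the minus strand, Alad at chr4:62505984-62520063 (minus) and Uros at chr7:133686142-133710467 (minus). Cpox is at chr16:58670208-58680391 (plus), Hmox1 at chr8:75093618-75100593 (plus) and Por at chr5:135670040-135735326 (plus). Nr1i2 is at chr16:38248349-38294849 (minus), Nr1i3 at chr1:171213934-171218845 (plus), and Ahr at chr12:35497979-35534989 (minus). The span of Nr1i3 overlaps that of Tomm40l, Por overlaps Gm40345 and Gm16061, and Uros overlaps Bccip. The sources used here do not say whether strand was used in counting, so reads of these neighbours may be included in the 3 genes' counts.

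Alas1, Por, Nr1i3 and Nr1i2 moved together over the day in wild-type total RNA, and the sequences before their start sites are shown for that reason (RefSeq, GRCm38.p6, 5′ to 3′ on the gene's strand). Capitals mark matches to the E-box CACGTG, which reads the same on both strands, and to the xenobiotic response core GCGTG (reverse complement CACGC), the words bound by clock activators and by AHR. The stretch of Por lies within the RefSeq span of the gene, before one of its start sites, and the others end where the span of the gene begins.
Alas1, chr9:106247955-106248204: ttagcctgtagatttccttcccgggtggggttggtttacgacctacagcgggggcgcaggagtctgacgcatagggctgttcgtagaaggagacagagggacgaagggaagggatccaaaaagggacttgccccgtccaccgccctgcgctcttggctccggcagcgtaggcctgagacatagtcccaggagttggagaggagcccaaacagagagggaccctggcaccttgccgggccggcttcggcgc
Por, chr5:135688895-135689144: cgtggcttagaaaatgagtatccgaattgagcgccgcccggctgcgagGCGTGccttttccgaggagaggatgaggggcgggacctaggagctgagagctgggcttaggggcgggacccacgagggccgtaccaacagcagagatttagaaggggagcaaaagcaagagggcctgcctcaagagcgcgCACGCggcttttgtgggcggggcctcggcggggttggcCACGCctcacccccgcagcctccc
Nr1i3, chr1:171213720-171213933: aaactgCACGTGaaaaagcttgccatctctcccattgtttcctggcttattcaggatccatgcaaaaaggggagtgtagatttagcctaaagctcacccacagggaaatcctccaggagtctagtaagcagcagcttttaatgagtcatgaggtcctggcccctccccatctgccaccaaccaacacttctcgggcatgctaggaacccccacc
Nr1i2, chr16:38294850-38295074: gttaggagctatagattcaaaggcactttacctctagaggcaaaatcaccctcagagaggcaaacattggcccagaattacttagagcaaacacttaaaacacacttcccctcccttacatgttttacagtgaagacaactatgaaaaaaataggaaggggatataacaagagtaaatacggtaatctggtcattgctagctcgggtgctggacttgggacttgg
The Nr1i3 stretch holds an E-box near its 5′ end, 244 bases before a start site that lies inside the gene's span and past the printed end, the Por stretch holds 3 cores, and the Alas1 and Nr1i2 stretches hold no match to any of the words searched. RefSeq windows of 250 bases before a start site were at hand for 7 of the 10 members (10 windows, none for Hmox1, Ahr and Fech). An E-box was found in 3 members (Nr1i3, Alad and Uros), against 6.02% of all 32851 mouse windows. The xenobiotic core was found in 4 members (Por and Cpox, and the second window of Alas1 and of Alad, not printed), against 28.2% of windows. The D-box TTANGTAA (2.06% of windows), the ROR element AGGTCA (14%) and the antioxidant element TGACNNNGC (10.2%) were found in 0 members, on either strand. The counts are per member and the shares per window, and Alas1, Alad and Uros had more than 1 window, so they are not on the same scale. These are matches of letters in short windows and no measure of binding.

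The libraries held 5316601 to 9831142 gene counts in wild-type total RNA and 4379549 to 14281894 in Bmal1-/- RNA. Nuclear libraries held 1662449 to 6620128 and polysomal libraries 2578048 to 13068044. Levels below are CPM (counts scaled so that every library's gene counts have the same total), changes are log2 ratios from edgeR's quasi-likelihood test with their standard error (SE), and p-values are adjusted over all genes of a fit by Benjamini-Hochberg with a threshold of 0.05. All 6 hepatocyte markers (among them Alb, Apoa1 and Ttr) were detected in each series, with a summed level of 29709 to 89441 CPM in wild-type total RNA and 27200 to 115024 CPM in Bmal1-/- RNA. Averaged over the day, Arntl was counted in the Bmal1-/- libraries at a higher level than in wild type (log2 change 1.24, SE 0.12, adjusted p 4.23e-13). It was called higher at ZT6 (2.59), ZT10 (3.72) and ZT14 (1.54), and did not pass at ZT2 (-0.43), ZT18 (0.26) and ZT22 (-0.27). Its count therefore does not show the labelled loss. Where its tags lie relative to the altered part was not tested. 4 libraries, 1 in each series and all at ZT22, held over 100 CPM of the female-specific Xist although the labels give male mice, while the other 140 held at most 5.67 CPM. The Y-linked Ddx3y was at 0.380, 0 and 0.352 CPM in those of total, nuclear and polysomal RNA and at 92.9 CPM in the Bmal1-/- library, and the total and nuclear ones both carry replicate number 5. Within wild-type total RNA, ZT2 replicate 4 deviated most from the median of the series over all times. Its median gap was 0.52 on the log2 scale, against 0.18 for the typical library of that series. The largest gap was 0.54 in nuclear RNA (ZT2 replicate 3, typical 0.29) and 0.59 in polysomal RNA (ZT18 replicate 1, typical 0.32). No fit left out either of these alone. Leaving out the 4 libraries with Xist, or the ZT2 library of total RNA, ended no call of rhythm or of a difference in rhythm among the members.

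In wild-type total RNA the steady-state level of 4 members followed the day, with peaks in the first hours of darkness. Alas1 rose from a mean of 63.6 CPM ± 62.9 (SD, n = 6) at ZT2 to 432 CPM ± 227 at ZT14, and Por from 88.5 CPM ± 22.03 to 357 CPM ± 142 at the same times. Nr1i3 rose from 45.6 CPM ± 16.7 to 103 CPM ± 20.3, and Nr1i2 from 37.2 CPM ± 9.60 to 56.3 CPM ± 12.5. A 24 h cosine fitted to the 36 libraries called these 4 of the 10 members rhythmic, where 18.9% of all genes tested were called.

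Alas1 varied widely among libraries of one time. At ZT2 its 6 libraries ran from 25.3 to 191 CPM with a median of 39.8 CPM, at ZT10 from 179 to 641 (median 411) and at ZT14 from 59.8 to 707 (median 460). The highest ZT2 library therefore lay above the lowest one at ZT14, and the 2 extreme times overlapped. The fitted curve peaked at ZT13.3 and its peak stood 7.13 times above its trough (adjusted p 0.000145); below, this quotient is called the fitted ratio. At ZT6 and ZT10 the libraries separated by replicate number, without overlap. At ZT6 replicates 1 to 3 averaged 216 CPM ± 29.2 and replicates 4 to 6 44.7 CPM ± 16.2, and at ZT10 they averaged 589 CPM ± 55.6 and 228 CPM ± 57.2. At the other 4 times the sets overlapped, with means of 39.0 and 88.2 CPM at ZT2, 411 and 453 at ZT14, 197 and 287 at ZT18 and 120 and 87.4 at ZT22, so replicates 1 to 3 had the lower mean at 3 of them. Within replicates 4 to 6 alone the log2 peak-to-trough was 2.82 with an adjusted p of 0.0693, against 2.83 in all 36 libraries. The labels do not say what the replicate numbers stand for.

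Por had the clearest rhythm by p-value of the 10 members. Its libraries ran from 59.4 to 119 CPM at ZT2 (median 85.1), from 203 to 388 CPM at ZT10 (median 319) and from 85.7 to 491 CPM at ZT14 (median 385). All 6 ZT10 libraries lay above all 6 ZT2 libraries, and at ZT14 only replicate 4 lay as low as ZT2. The fitted ratio was 4.54 with a peak at ZT14.0 (adjusted p 2.63e-08). The order of its time means was ZT14, ZT10, ZT18, ZT6, ZT22 and ZT2. The 3 highest lay within 1 SD of their neighbours, and ZT18 and ZT6 were the pair of neighbours whose ranges did not meet.

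The receptors had smaller amplitudes. Nr1i3 ran from 19.9 to 64.4 CPM at ZT2 and from 70.2 to 120 CPM at ZT14, without overlap, with a fitted ratio of 2.15 and a peak at ZT14.6 (adjusted p 7.87e-05). Nr1i2 ran from 24.6 to 48.6 CPM at ZT2 and from 36.9 to 72.3 CPM at ZT14, with overlap, a ratio of 1.48 and a peak at ZT15.6 (adjusted p 0.0117). The Nr1i2 call was lost without replicate 5 (adjusted p 0.0727), without replicate 6 (0.105) and in a fit of all 4 series (0.140). Ahr, the third receptor, stayed between time means of 13.9 and 17.5 CPM (ratio 1.13, adjusted p 0.660).

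The later enzymes of heme synthesis were not called rhythmic in wild-type total RNA. Fech had a fitted ratio of 1.27 (adjusted p 0.122), Cpox 1.28 (0.153), Alad 1.13 (0.346) and Uros 1.69 (0.0813), and Hmox1 had 1.48 (0.287). Without replicate 4 Fech had an adjusted p of 0.0361, and without the low ZT14 library, replicate 4, Uros had 0.0359. Cpox ran from 105 to 136 CPM at ZT6 and from 140 to 190 CPM at ZT18, so these extreme times did not overlap. Nr1i3 and Cpox were the 2 members with separate extreme times, where 10.7% of all genes tested had them. Uros and Hmox1 rested on few counts, with means of 34.4 and 34.7 counts per library in wild-type total RNA.

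**Figure D1:**
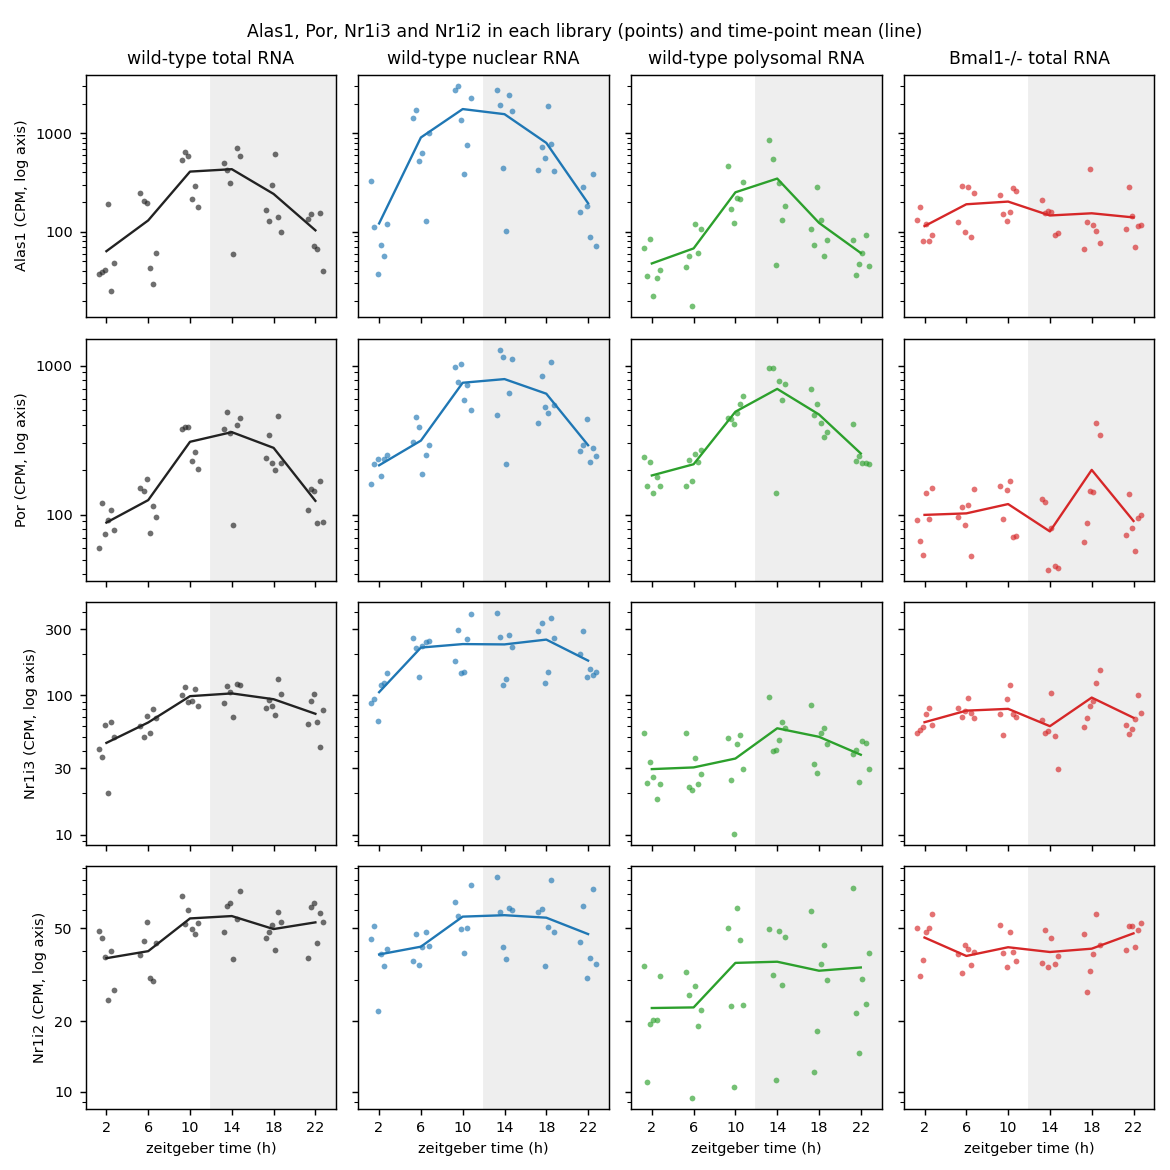
Level of Alas1, Por, Nr1i3 and Nr1i2 in CPM (log axis) against zeitgeber time in hours, with 1 point per library, a line through the time-point means and the dark phase shaded. Alas1 and Por rise toward ZT10 and ZT14 in the 3 wild-type series, with single low libraries at ZT14. The Bmal1-/- means of Alas1 stay between 114 and 203 CPM and those of Por between 77.1 and 200 CPM.

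The same rise was present in the nucleus and on polysomes. In nuclear RNA, the ZT2 libraries of Alas1 averaged 122 CPM ± 108 and those of ZT10 averaged 1761 CPM ± 1089 (range 37.1 to 332 CPM against 387 to 3052 CPM, without overlap), with a fitted ratio of 14.9 and a peak at ZT12.0 (adjusted p 5.31e-05). Por went from 214 CPM ± 34.8 at ZT2 to 811 CPM ± 428 at ZT14, a ratio of 4.30 with a peak at ZT13.6 (adjusted p 3.80e-06). Nr1i3 (ratio 1.82, adjusted p 0.0361) and Nr1i2 (1.49, adjusted p 0.0246) were also called, which makes 4 of 10 members where 5.99% of genes were called. The Nr1i3 call was lost without replicate 1, 2, 5 or 6 (adjusted p from 0.105 to 0.152). The Nr1i2 call was lost without replicate 1, 2, 3, 5 or 6 (0.0617 to 0.136). Alas1 was the 1 member whose extreme times did not overlap (4.67% of genes).

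In polysomal RNA, 4 of 10 members were called, where 7.9% of genes were. Alas1 went from 47.7 CPM ± 23.9 at ZT2 to 347 CPM ± 306 at ZT14 (ratio 8.24, peak ZT13.4, adjusted p 1.01e-05), with ranges of 22.3 to 85.5 and 46.5 to 862 CPM that overlapped. Por went from 183 CPM ± 41.7 to 697 CPM ± 307 (ratio 4.38, peak ZT14.5, adjusted p 6.61e-09), and Nr1i3 from 29.6 CPM ± 12.8 to 58.1 CPM ± 21.6 (ratio 2.31, peak ZT16.2, adjusted p 0.00227). Alad was the fourth, with its highest mean of 223 CPM ± 59.1 at ZT18 and its lowest of 155 CPM ± 47.0 at ZT10 (ratio 1.66, peak ZT18.3, adjusted p 0.0120). This call was lost without replicate 3 (adjusted p 0.0797) and without replicate 6 (0.154). Nr1i2 had a ratio of 1.87 and was not called (adjusted p 0.140). On polysomes 0 of 10 members had extreme times without overlap (7.0% of genes).

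Whether a fraction had another rhythm than total RNA was tested as an interaction. It called 0 of 10 members for nuclear RNA and 0 of 10 for polysomal RNA by edgeR, with 0.0% of all genes called in both. DESeq2 also called 0 members in each, with 0 of all genes for nuclear and 15 for polysomal RNA. At an unadjusted p under 0.05 there were 0 members for nuclear and 1 for polysomal RNA, Alad (unadjusted p 0.000628, adjusted p 0.291). Over all genes tested, 244 of 11864 for nuclear and 681 of 11556 for polysomal RNA were under that value. For Alas1, whose fitted ratio was 14.9 in the nucleus and 7.13 in total RNA, the interaction had an unadjusted p of 0.0810 (adjusted p 0.9997), and with the libraries paired by replicate number and time it had 0.0167 (adjusted p 0.9997). Neither test shows that the rhythms were alike.

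**Figure D2:**
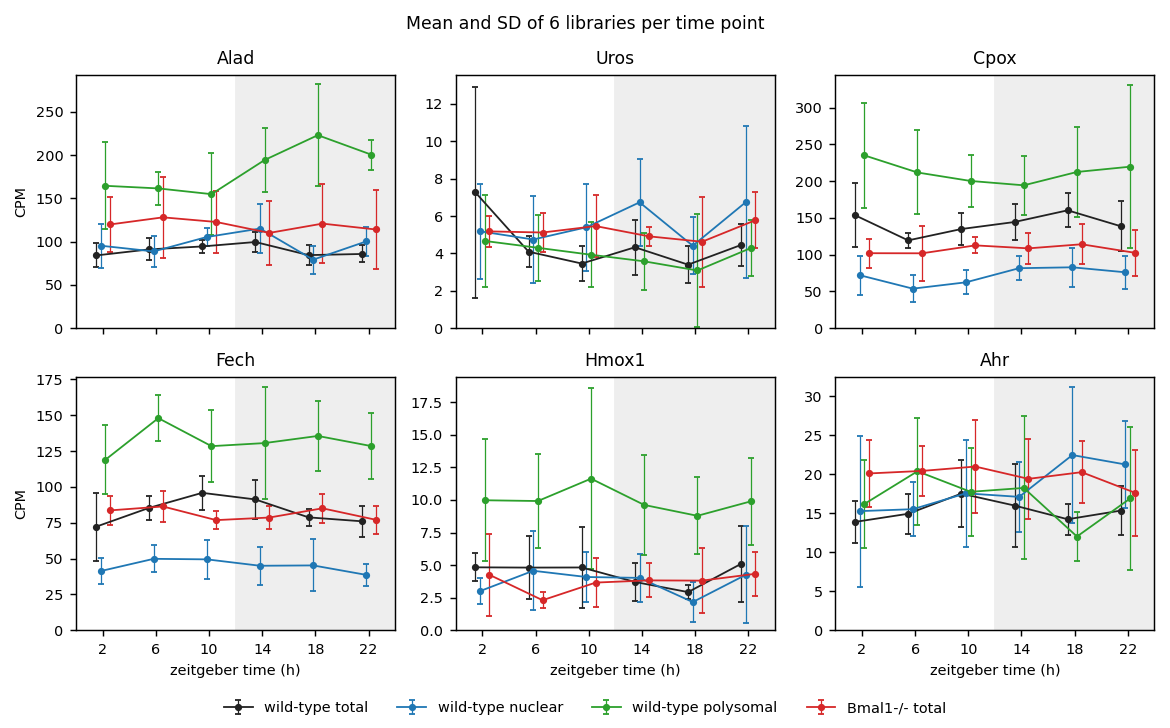
Mean level in CPM and SD of 6 libraries at each zeitgeber time for Alad, Uros, Cpox, Fech, Hmox1 and Ahr in the 4 series, with the dark phase shaded. The polysomal means of Alad, Cpox, Fech and Hmox1 lie above those of total RNA at all 6 times, and Alad on polysomes is highest at ZT18, at 223 CPM.

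In Bmal1-/- total RNA, 0 of 10 members were called rhythmic by edgeR and by DESeq2, where edgeR called 0.00825% of all genes. At an unadjusted p under 0.05 there were 0 members, where 491 of 12126 genes were under that value. Alas1 stayed between time means of 114 and 203 CPM (fitted ratio 1.49, adjusted p 0.9999) and Nr1i3 between 60.2 and 96.6 CPM (ratio 1.08). Extreme times without overlap were found for 0 of 10 members (1.4% of genes). Por stayed between 77.1 CPM at ZT14 and 200 CPM at ZT18, where its libraries ran from 65.2 to 414 CPM.

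The difference in rhythm from wild type, tested as an interaction, was called for 3 of 10 members, where 5.11% of genes were called. They were Por (adjusted p 0.0108), Alas1 (0.0120) and Nr1i2 (0.0299), with Nr1i3 at 0.0571. DESeq2 called these 3 and Nr1i3 (0.0337). These calls were sensitive to single replicates. Leaving out replicate 2 gave adjusted p of 0.0693 for Por and 0.104 for Alas1, and leaving out replicate 6 gave 0.0806 for Por, 0.0824 for Alas1 and 0.318 for Nr1i2. Without replicate 5, Alas1 had 0.0676 and Nr1i2 0.126, and without replicate 3 Nr1i2 had 0.116. Without the low ZT14 library of wild type, replicate 4, the values were 0.00177 for Por, 0.00248 for Alas1, 0.00670 for Nr1i2 and 0.0237 for Nr1i3. That fit was chosen after seeing the data and takes out a low library near the wild-type peak. Its smaller values are therefore no support for the calls.

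Compared time by time, the members called were 1 of 10 at ZT2 (9.68% of genes), 0 at ZT6 (10.1%), 3 at ZT10 (16.3%), 4 at ZT14 (9.75%), 2 at ZT18 (12.6%) and 0 at ZT22 (7.05%), and each was lower in Bmal1-/-. Over all genes, ZT10 was the time with most calls. At ZT14 Por ran from 42.8 to 127 CPM (median 63.6) in Bmal1-/- and from 85.7 to 491 CPM (median 385) in wild type, a log2 change of -2.30 (SE 0.36, adjusted p 4.08e-06). Apart from replicate 4 of wild type, no library of the 2 groups overlapped. At ZT10 Por ran from 71.2 to 168 CPM against 203 to 388 CPM, without overlap, a log2 change of -1.45 (SE 0.35, adjusted p 0.00157). It was the 1 member whose ranges did not meet at ZT10, where those of 9.35% of genes did not. At ZT2 its change was 0.09 and did not pass the test (adjusted p 0.910).

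Alas1 ran from 93.6 to 210 CPM at ZT14 in Bmal1-/- and from 59.8 to 707 CPM in wild type, with overlap through 1 wild-type library. Its log2 change at that time was -1.64 (SE 0.51, adjusted p 0.0272), the only time it was called. The call was lost without replicate 2, 3, 5 or 6 (adjusted p from 0.0577 to 0.145), with all genes that had a count (0.0550) and with all series in a single fit (0.0641). Without the low wild-type library the change was -1.88 (adjusted p 0.00620), which follows from taking out a low wild-type value and is no support for the call. At ZT2 the Alas1 means were in the other order, 114 CPM ± 37.6 in Bmal1-/- and 63.6 CPM ± 62.9 in wild type, without passing the test (adjusted p 0.390). Nr1i3 was lower at ZT14 (-0.87, SE 0.22, adjusted p 0.00473), a call lost without replicate 6 (0.0738). Nr1i2 was lower at ZT10 (-0.49, adjusted p 0.0263), ZT14 (-0.61, 0.00710) and ZT18 (-0.47, 0.0413). These 3 calls were lost without replicate 3 (adjusted p 0.129, 0.0844 and 0.163) and without replicate 6 (0.0827, 0.0837 and 0.106), and the call at ZT18 also without the Xist libraries (0.0516). At ZT14, 4 of 10 members were called lower, where 4.98% of genes were called lower.

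**Figure D3:**
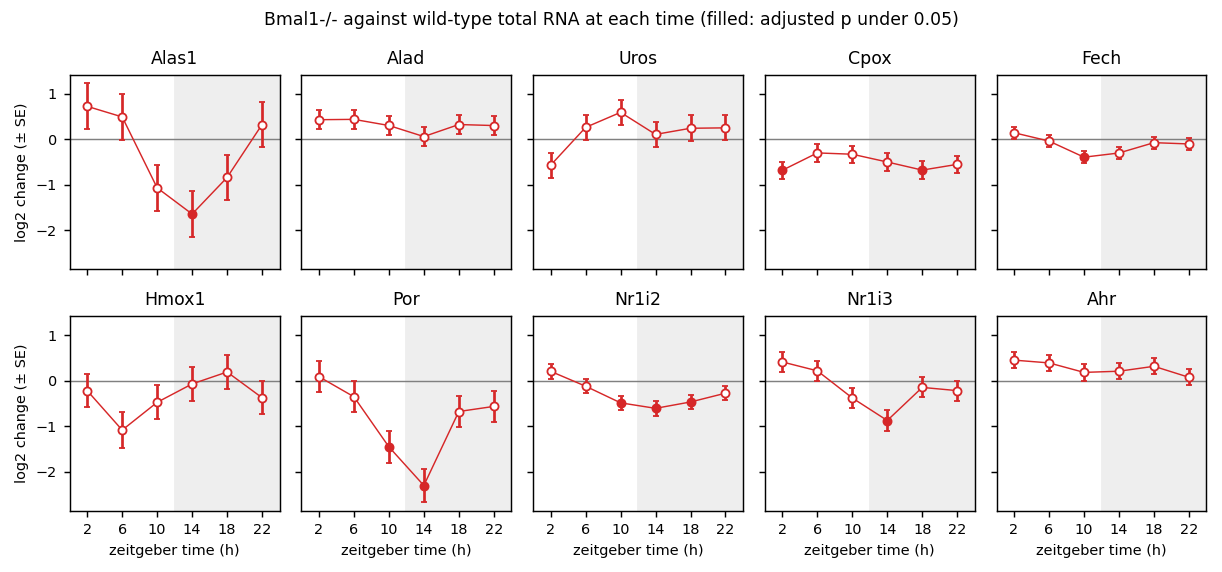
Log2 change of Bmal1-/- against wild-type total RNA at each zeitgeber time for the 10 members, with SE bars and filled points where the adjusted p is under 0.05. Alas1, Por and Nr1i3 dip at ZT14, to -1.64, -2.30 and -0.87, and Cpox lies below 0 at all 6 times.

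Averaged over the day, 6 of 10 members passed the test of Bmal1-/- against wild type, where 44.2% of all genes tested did (21.7% higher and 22.4% lower). Por was lowest against wild type, with a mean of 114 CPM ± 74.6 (SD, n = 36) against 214 CPM ± 131 and a lower mean at 5 of 6 times (log2 change -0.88, SE 0.14, adjusted p 3.94e-07). Cpox, which makes protoporphyrinogen, had 107 CPM ± 24.6 against 142 CPM ± 29.2 (-0.51, SE 0.08, adjusted p 1.27e-07) and was lower at 6 of 6 times. Among single times it was called at ZT2 (-0.68, adjusted p 0.0135) and ZT18 (-0.68, adjusted p 0.0103). The ZT2 call was lost without the deviating ZT2 library (0.0960), and both without replicate 4 (0.245 and 0.0586). Nr1i2 fell by 0.29 on the log2 scale (SE 0.07, adjusted p 0.000168). At ZT10 Fech was also called (-0.39, SE 0.13, adjusted p 0.0307), a call lost in 5 of the 6 fits without 1 replicate number (0.0559 to 0.142), with all genes that had a count (0.0877) and with all series in a single fit (0.159). Over the day Fech passed narrowly at -0.13 (SE 0.05, adjusted p 0.0456), and 5 of the 6 fits without 1 replicate number lost the call (adjusted p from 0.0725 to 0.195). Its mean CPM, before TMM scaling, was higher in Bmal1-/- at 4 of 6 times (81.2 CPM ± 9.51 against 83.2 CPM ± 15.2 over the day).

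Alad and Ahr rose. Alad, which joins 2 molecules of the ALAS1 product, had 119 CPM ± 38.5 against 89.8 CPM ± 12.0 (0.31, SE 0.09, adjusted p 0.00239), with the higher mean at 6 of 6 times. The Bmal1-/- libraries of Alad ran from 57.6 to 199 CPM and overlapped the wild-type range of 57.0 to 115 CPM. Ahr had 19.8 CPM ± 4.55 against 15.3 CPM ± 3.49 (0.27, SE 0.07, adjusted p 0.00169), also at 6 of 6 times. The daily averages of Alas1 (-0.34, adjusted p 0.181), Nr1i3 (-0.16, 0.132), Hmox1 (-0.34, 0.0663) and Uros (0.15, 0.306) did not pass. Hmox1 had 4.36 CPM ± 2.14 in wild type and 3.69 CPM ± 1.99 in Bmal1-/-. In whole liver, fewer cells of a type and less RNA per cell cannot be told apart.

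Erythroid cells also make heme, and their markers moved with this comparison. The summed level of the 8 erythroid markers had a median of 2586 CPM in wild type (546 to 13135) and 1464 CPM in Bmal1-/- (27.7 to 5469), and 4 of the 5 markers tested fell, among them Hbb-bt (-1.04) and Hbb-bs (-1.02). Alas2, the erythroid form of the first enzyme and itself 1 of these markers, fell by 0.87 on the log2 scale (SE 0.16, adjusted p 6.74e-06), from 82.4 CPM ± 23.2 to 48.5 CPM ± 22.7. The 6 cholangiocyte markers summed to a median of 25.7 CPM in wild type and 73.7 CPM in Bmal1-/-, and the 2 markers tested, Sox9 and Spp1, rose. Of the 6 Kupffer cell markers 5 fell, with summed medians of 246 and 214 CPM. Of 6 stellate cell markers 3 rose and 1 fell (323 and 403 CPM), and of 6 sinusoidal endothelium markers 1 rose and 3 fell (198 and 194 CPM). Of the 6 hepatocyte markers 2 rose and 2 fell, among them Alb (-0.56, adjusted p 0.000101), with summed medians of 69369 and 54584 CPM. Lymphocyte markers had summed medians of 3.30 and 2.88 CPM, and 1 was tested, Trbc2, which fell. Over all genes tested, 21.7% were higher and 22.4% lower in this comparison. The part of these cells in the members' changes was not tested.

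Among 11 other genes of heme synthesis, 8 differed in Bmal1-/- (1 higher and 7 lower), where 44.2% of all genes did. Their median log2 change was -0.17, and that of all genes was -0.00075. Clpx, a mitochondrial chaperone that activates ALAS and also serves in its breakdown, rose from 74.6 CPM ± 46.4 to 176 CPM ± 40.3 (1.33, SE 0.12, adjusted p 2.72e-14). It was the 1 rhythmic gene of this list in wild-type total RNA, with a ratio of 4.11 and a peak at ZT23.3 (adjusted p 0.000159), and its rhythm differed in Bmal1-/- (adjusted p 0.000265). Ppox, which follows Cpox in the pathway, fell by 0.48 on the log2 scale (SE 0.13, adjusted p 0.00199), from 3.12 CPM ± 1.05 to 2.404 CPM ± 1.02. Urod, the enzyme after UROS, was named after its value was seen and had a log2 change of -0.13 (adjusted p 0.169).

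Of 8 tested genes of heme breakdown and handling, 7 differed (2 higher and 5 lower), where 44.2% of all genes did. Hmox2, the constitutive heme oxygenase, rose by 0.44 on the log2 scale (SE 0.06, adjusted p 5.91e-08) and Hebp1, a heme-binding protein, by 0.23 (adjusted p 0.000207). Blvrb, a biliverdin reductase, fell by 0.50 (adjusted p 1.09e-11) and Tspo by 0.39 (adjusted p 1.04e-07). Of 5 other electron donors, 3 fell and 0 rose, where 22.4% of all genes fell and 21.7% rose. The 3 were Cyb5b (-0.56, SE 0.06, adjusted p 1.65e-11), Cyb5r3 (-0.27, adjusted p 4.07e-05) and Fdxr (-0.25, adjusted p 0.00446).

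Target genes of the receptors did not move in 1 direction. Of 20 tested, 7 rose and 6 fell in Bmal1-/-, where 21.7% of all genes rose and 22.4% fell. Their median log2 change was 0.01. Cyp2c55 (2.62, SE 0.27, adjusted p 2.20e-12) and the transporter Slco1a4 (1.46, SE 0.17, adjusted p 1.91e-10) rose most, and Gsta1 (-3.44, SE 0.29, adjusted p 1.31e-15) and Cyp2a5 (-2.07, SE 0.16, adjusted p 9.60e-17) fell most. Cyp2b10, the classical CAR target, rose from 13.4 CPM ± 13.2 to 29.3 CPM ± 15.4 (1.16, SE 0.23, adjusted p 3.75e-05), while the daily average of Nr1i3 itself did not pass. Its reads may be split with its close relatives Cyp2b9 and Cyp2b13. It was rhythmic in wild type (ratio 3.69, peak ZT19.5, adjusted p 0.0333) and its rhythm differed in Bmal1-/- (adjusted p 0.0317). Cyp3a11, the classical PXR target (-0.22, adjusted p 0.218), and Cyp1a2, an AHR target (-0.10, adjusted p 0.492), did not pass. Cyp2a5 had a ratio of 3.08 with a peak at ZT14.0 in wild type (adjusted p 0.00192). The genes named after the 4 extremes in this list were chosen after their values were seen.

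Of 11 tested partners and regulators of the receptors, 3 rose and 3 fell in Bmal1-/-, where 21.7% of all genes rose and 22.4% fell. Ppargc1a, a coactivator of Alas1 in fasting, rose by 0.52 (SE 0.16, adjusted p 0.00624) and Rxra, the partner of CAR and PXR, fell by 0.24 (SE 0.05, adjusted p 4.34e-05). Dnajc7 rose by 0.45 (adjusted p 2.27e-10). Of 8 clock output genes, 7 were rhythmic in wild-type total RNA and all 7 of these differed in rhythm in Bmal1-/-. Over all genes, 18.9% were rhythmic in wild-type total RNA and 5.11% differed in rhythm in Bmal1-/-. Dbp, a factor that binds D-boxes, peaked at ZT10.0 in wild type (ratio 95.4, adjusted p 1.06e-11).

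The nuclear and polysomal comparisons ask where the RNA of each gene lies. Values are relative to the typical gene, since each library is scaled to its own total. In nuclear RNA, 3 of 10 members were higher than in total RNA and 3 lower, where 83.8% of all genes differed (41.6% higher and 42.1% lower). Alas1 (1.64, SE 0.25, adjusted p 2.74e-08), Nr1i3 (1.27, SE 0.09, adjusted p 1.27e-20) and Por (1.24, SE 0.13, adjusted p 9.14e-14) were richer in the nucleus at 6 of 6 times. Cpox (-1.07, SE 0.08, adjusted p 5.38e-20) and Fech (-0.95, SE 0.08, adjusted p 2.77e-18) were poorer at 6 of 6 times. Hmox1 was called at -0.35 (SE 0.16, adjusted p 0.0371), a call lost in 5 of the 6 fits without 1 replicate number (adjusted p from 0.0632 to 0.236). Alad, Nr1i2, Ahr and Uros lay between -0.05 and 0.23 and did not pass. Without the deviating ZT2 library of total RNA, Uros had 0.36 (adjusted p 0.00188) and Ahr 0.21 (0.0212).

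On polysomes 5 of 10 members were higher than in total RNA and 3 lower, where 76.1% of all genes differed (38.4% higher and 37.6% lower). Hmox1 (1.14, SE 0.14, adjusted p 2.63e-11), Alad (0.96, SE 0.07, adjusted p 4.14e-20), Por (0.81, SE 0.11, adjusted p 1.22e-09), Fech (0.60, SE 0.07, adjusted p 5.06e-12) and Cpox (0.51, SE 0.08, adjusted p 1.37e-07) were richer, each at 6 of 6 times. Nr1i3 (-1.05, SE 0.11, adjusted p 2.01e-13), Alas1 (-0.76, SE 0.22, adjusted p 0.00181) and Nr1i2 (-0.75, SE 0.12, adjusted p 1.12e-07) were poorer at 6 of 6 times. In levels, Alad had 183 CPM ± 45.7 (SD, n = 36) on polysomes and 89.8 CPM ± 12.0 in total RNA, and Nr1i3 had 40.2 CPM ± 18.4 and 79.9 CPM ± 26.7. Among the members, the enzymes Alad, Cpox and Fech thus lay on the richer side and Alas1, Nr1i2 and Nr1i3 on the poorer side. Ppox, the enzyme between Cpox and Fech in the pathway and named after its value was seen, had -0.06 (adjusted p 0.784). The summed erythroid markers had a median of 8853 CPM on polysomes (2157 to 20823) against 2586 CPM in total RNA. The summed hepatocyte markers had a median of 36632 CPM on polysomes and 47076 CPM in the nucleus, against 69369 CPM in total RNA. The part of erythroid RNA and of the hepatocyte level in these changes was not tested. The 2 fractions share the total RNA libraries as their reference.

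**Figure D4:**
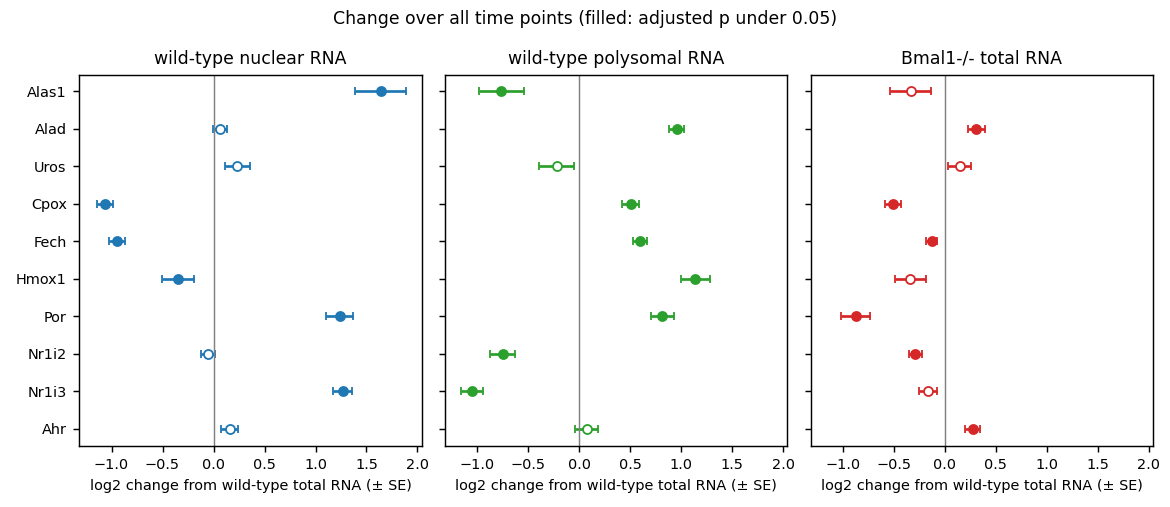
Log2 change from wild-type total RNA over all 6 times for the 10 members in nuclear, polysomal and Bmal1-/- RNA, with SE bars and filled points where the adjusted p is under 0.05. Alas1 and Nr1i3 lie above 0 in the nucleus and below 0 on polysomes, while Cpox and Fech lie below 0 in the nucleus and above 0 on polysomes.

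The nuclear RNA of Alas1 ended at other sites than its total RNA. The authors' filtered list holds 8 polyadenylation sites in the gene. The site at chr9:106233920-106234133, 465 bases before the RefSeq end, took 52.9% ± 13.4 (SD, n = 36) of the gene's site counts in total RNA, 54.4% ± 14.6 on polysomes and 13.3% ± 8.69 in the nucleus. The log2 change of this share was -2.13 in the nucleus (SE 0.15, adjusted p 5.86e-21) and 0.03 on polysomes (adjusted p 0.744). 4 sites, 6872, 6917, 7934 and 7992 bases before that end, had a nuclear mean CPM over 8 times that of total RNA and were grouped after their values were seen. Together they took 77.4% ± 13.6 in the nucleus (36.5% to 92.8%), 22.8% ± 12.7 in total RNA and 6.82% ± 4.76 on polysomes.

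In levels, the site at chr9:106241447-106241572, the largest of these, had 316 CPM ± 379 in the nucleus, 31.5 CPM ± 41.0 in total RNA and 5.10 CPM ± 6.04 on polysomes. The site near the RefSeq end had 71.4 CPM ± 70.5 in the nucleus, 110 CPM ± 101 in total RNA and 73.8 CPM ± 83.1 on polysomes. The mean of the end site was thus lower in the nucleus than in total RNA, while that of the upstream site was higher. Both had their lowest nuclear mean at ZT2. In nuclear RNA the upstream site had 31.7 CPM ± 27.3 at ZT2 and 729 CPM ± 553 at ZT10, and the end site had 15.3 CPM ± 8.17 and 120 CPM ± 42.0. A neighbouring site, at chr9:106241636-106241772, had the opposite pattern (5.06% in the nucleus, 16.7% in total RNA and 22.7% on polysomes), with log2 changes of -1.90 in the nucleus (adjusted p 2.10e-15) and 0.44 on polysomes (adjusted p 0.00149). Exon and intron limits were not used here, and priming at internal runs of A was not tested.

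**Figure D5:**
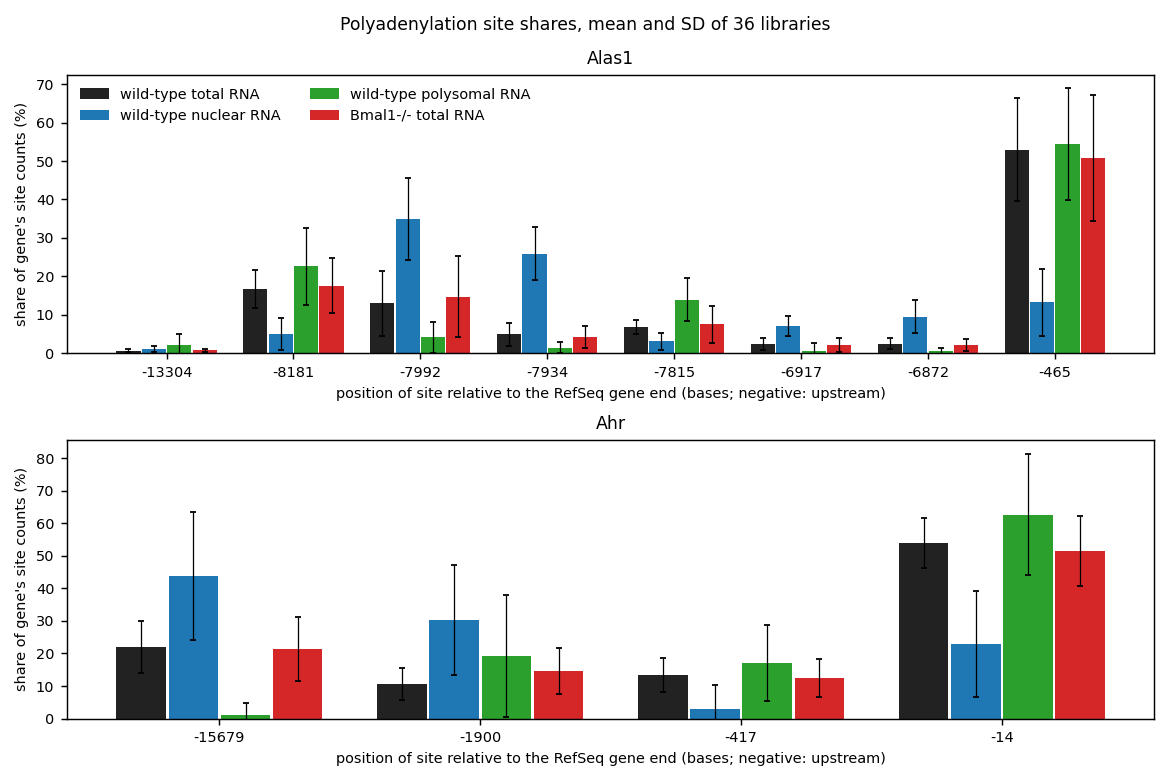
Share of the gene's site counts in percent at each polyadenylation site of Alas1 and Ahr, placed by distance in bases from the RefSeq gene end, as mean and SD of 36 libraries in the 4 series. In Alas1 the nuclear bars stand highest at the sites 7934 and 7992 bases upstream and low at the end site, and in Ahr the polysomal bar is near 0 at the site 15679 bases upstream.

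Ahr also had an upstream site whose mean share differed between the fractions. Its site at chr12:35513658-35513687, 15679 bases before the RefSeq end, took 21.99% of site counts in total RNA, 43.8% in the nucleus and 0.948% on polysomes. The polysomal change was -5.29 on the log2 scale (SE 0.37, adjusted p 1.54e-17), from 1.90 CPM ± 0.808 to 0.0593 CPM ± 0.218. In the nucleus, the site counts of Ahr were too few for the test, with a mean of 12.4 per library. The upstream site had 1.35 CPM ± 0.993 there, so its share was higher than in total RNA and its mean CPM lower. The site nearest the end had 4.60 CPM ± 1.28 in total RNA and 0.635 CPM ± 0.525 in the nucleus. No listed site of Ahr had a nuclear mean over 1.35 CPM, where the gene's nuclear time means ran from 15.3 to 22.5 CPM. The shares thus cover a small part of its nuclear counts. The site nearest the end of Ahr, at chr12:35497993-35498062, took 53.9% in total RNA and 62.7% on polysomes (log2 change 0.21, adjusted p 0.0341).

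Of the 21 sites tested on polysomes, in 8 members, 10 differed from total RNA, where 70.5% of all sites did, and of 19 nuclear sites in 7 members 17 differed, where 78.7% did. Nr1i2 used its upstream site at chr16:38249009-38249085 more in both fractions, with 7.64% in total RNA, 16.9% in the nucleus (log2 change 1.12, SE 0.11, adjusted p 2.72e-14) and 21.2% on polysomes (1.40, SE 0.12, adjusted p 3.02e-16). Cpox shifted toward its upstream site at chr16:58679202-58679360 in the nucleus, from 40.4% to 57.5% (0.51, SE 0.08, adjusted p 1.09e-07), and the end site of Fech went from 36.8% to 21.7% (-0.78, SE 0.07, adjusted p 2.84e-15). The 2 sites of Por did not differ in either fraction. Hmox1 had a single site, and Uros had too few counts for the test.

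In Bmal1-/- total RNA, 4 of 21 member sites differed in share, in Por and Cpox, where 9.03% of all sites did. Por gained share at its internal site at chr5:135715875-135715963, from 28.5% to 36.5% (log2 change 0.35, SE 0.11, adjusted p 0.0387), and lost it at the end site at chr5:135735036-135735336 (-0.17, SE 0.05, adjusted p 0.0212). Both calls were lost without replicate 3 (adjusted p 0.127 and 0.0889) and replicate 4 (0.245 and 0.239). The CPM at both Por sites was lower in Bmal1-/-, 39.1 against 60.7 and 70.3 against 144. Cpox gained at its end site at chr16:58680180-58680392, from 55.8% to 62.2% (0.16, SE 0.04, adjusted p 0.00174), a call lost without replicate 5 (0.0629) or 6 (0.0956). In wild-type total RNA, 1 of 21 sites changed share over the day, the Nr1i3 site at chr1:171217964-171218082 (adjusted p 0.0270), where 0.362% of sites did. Its share was 9.29% ± 1.64 at ZT10 and 16.6% ± 2.95 at ZT22, and the call was lost in 5 of 6 fits without 1 replicate number (adjusted p from 0.0704 to 0.177).

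Genes with the most similar profile were looked up by Pearson correlation over the 12 group means of wild-type and Bmal1-/- total RNA, among 8157 genes, as a description without a test. The closest to Alas1 were Arhgef26 (r 0.946), Stim2, Cul4a, Mtss1 and Slc16a12. Por was closest to Prodh (r 0.971), Homer2, St3gal5, Slc37a4 and Rhbdd2, and Nr1i3 to Dctpp1 (r 0.927), Bnip3, Zfp91, Lpin1 and Akt1. The means share libraries and library scaling across genes.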

How the data were processed

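The authors deposited raw counts per gene and per polyadenylation site for 144 libraries, with a filtered list of 29199 sites. Per the submitters' processing notes, STAR 2.4.2a, HOMER and edgeR were used with mm10 and GRCm38.p5, and the strand setting of the counting is not given in the sources used here. Groups and replicate numbers came from the titles, and 0 columns lacked a sample.

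Counts were tested in R 4.3.3 with edgeR 4.0.16 (TMM, robust quasi-likelihood, Benjamini-Hochberg over all features, threshold 0.05), for genes averaging 10 or more counts per library. Levels were compared over 6 time-point means in 72 libraries, rhythm as a 24 h cosine and sine in 36. Fits covered 12082 genes for Bmal1-/-, 11864 for nuclear and 11556 for polysomal RNA against total RNA. Sites (26736 placed in 9089 genes by RefSeq GRCm38.p6, up to 1000 bases past the end) were tested with the log of the gene's site total plus 0.5 as offset, for sites with at least 5% of a gene with 50 or more counts. The code was tested on simulated data. Among 360 library pairs within groups, 0 were identical (smallest chi-square per degree of freedom 4.35).

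All 10 members were named, with the 2 largest rises and falls among called genes of each pathway list. Members and lists were chosen with earlier results of these data known. Alternatives were DESeq2 1.42.0, its size factors, no filter, all series in a single fit, a replicate block, replicates 1 to 3 or 4 to 6, each replicate left out, a 10% site share, and, chosen after seeing the data, 3 leaving out doubted libraries and a block of replicate number within time for rhythm differences.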

Additional observations from a re-analysis of the deposited data

Results flagged for a closer look

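Of 240 sets of 6 libraries (10 genes, 4 series, 6 times), 23 held a highest or lowest library that stood apart from the rest by Dixon's criterion, where chance gives about 1 in 20. For Alas1 these were the highest libraries of total RNA at ZT2 (191 CPM), nuclear RNA at ZT2 (332) and ZT18 (1899), polysomal RNA at ZT18 (288) and Bmal1-/- RNA at ZT18 (437) and ZT22 (285). For Por they were the lowest total RNA library at ZT14 (85.7 CPM) and the highest nuclear (438) and polysomal (406) libraries at ZT22. For Nr1i3 it was the lowest nuclear library at ZT6 (135 CPM), and for Ahr the highest nuclear library at ZT10 (30.6) and Bmal1-/- library at ZT22 (28.8). Alad had a low total RNA library at ZT2 (57.0 CPM), and Fech a high nuclear library at ZT22 (53.8) and a low polysomal library at ZT18 (86.8). Hmox1 had high libraries in total RNA at ZT2 (6.94 CPM), nuclear RNA at ZT6 (10.6), polysomal RNA at ZT22 (16.2) and Bmal1-/- RNA at ZT2 (10.2). Uros had high libraries in total RNA at ZT2 (18.2 CPM) and Bmal1-/- RNA at ZT18 (9.20), and low ones in nuclear RNA at ZT14 (2.47) and polysomal RNA at ZT10 (0.485).

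The rhythm in Bmal1-/- RNA was not that of wild type by edgeR's interaction test for Por (adjusted p 0.0108), Alas1 (0.0120) and Nr1i2 (0.0299).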

How the results depend on the processing

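Of 5516 comparisons of a member or site value with an alternative, 5153 kept their side of the threshold. A call was lost in 282 and gained in 78, and 3 called values changed sign. The 3 were Cpox on polysomes at ZT22 with replicates 1 to 3 (-0.00207, adjusted p 0.997), and the Alad sites at 62509163 (-0.018) and 62510106 (0.028) with replicates 4 to 6. Values that were not called changed sign in 186 comparisons, which are included in the counts above. The 3 members with a different rhythm in Bmal1-/- became 0 with replicates 4 to 6 and 0 to 4 with 1 replicate left out. The 4 rhythmic members of nuclear RNA became 2 with replicates 1 to 3, 1 with replicates 4 to 6 and 2 to 4 with 1 replicate left out. The 4 of polysomal RNA became 2 with replicates 1 to 3, and the 4 of total RNA 1 with replicates 4 to 6. The 4 sites with other usage in Bmal1-/- became 2 with replicates 1 to 3 and 1 to 5 with 1 replicate left out. The 1 site with rhythmic usage became 0 with replicates 1 to 3, 0 with replicates 4 to 6 and 0 to 1 with 1 replicate left out. Over all genes, 617 had a different rhythm in Bmal1-/-, against 189 with all series in a single fit, 236 with replicates 1 to 3, 200 with replicates 4 to 6, and 380, 387, 288 and 296 without replicates 2, 3, 5 and 6. Genes rhythmic in nuclear RNA went from 669 to 174 with replicates 1 to 3 and to 237 with replicates 4 to 6. In polysomal RNA 845 became 115 with replicates 1 to 3, and in total RNA 2260 became 622 with replicates 4 to 6. Sites with other usage in Bmal1-/- went from 1223 to 776 with replicates 1 to 3. Sites with rhythmic usage went from 48 to 7 with replicates 1 to 3 and to 3 with replicates 4 to 6. The causes of these changes were not tested, and the fits on fewer replicates hold fewer samples. Same-numbered nuclear and total RNA libraries of a time deviated together in 34 of 36 pairs (correlation over 0.1, mean 0.349), and 29 correlated best with their own number, a hint that they share a source, which the labels do not state. In 2 pairs the correlation fell short, and the fits without a block were kept as the main ones. Their SEs and p-values for nuclear against total RNA leave this possible pairing out of account. A correlation over 0.1 was found in 1 of 36 polysomal and 18 of 36 Bmal1-/- pairs. With a replicate block the members called were 6 in Bmal1-/-, 6 in nuclear and 8 in polysomal RNA. Over all genes the block called 5692 of 12082, 10148 of 11864 and 8490 of 11556. Members rhythmic were 5 in total, 4 in nuclear, 5 in polysomal and 0 in Bmal1-/- RNA, and 4 differed in rhythm in Bmal1-/-. Over all genes 3039 of 11964, 996 of 11172, 1506 of 10691 and 0 of 12126 were rhythmic. Without the block they were 2260, 669, 845 and 1. A different rhythm in Bmal1-/- was called for 842 of 12082 genes, against 617. The block was replicate number within time for the nuclear and polysomal levels, and replicate number alone for the others. In a block of replicate number within time, chosen after seeing the data, 0 members differed in rhythm in either fraction, with 2 at an unadjusted p under 0.05 in nuclear RNA, Alas1 (0.0167) and Ahr (0.0317), and 1 in polysomal RNA, Alad (0.00254). Over all genes, 416 of 11864 in nuclear and 510 of 11556 in polysomal RNA had an unadjusted p under 0.05 in that block. With a replicate block the member sites with other usage were 5 in Bmal1-/-, 17 in nuclear and 7 in polysomal RNA, and 1 was rhythmic. Over all sites they were 1999 of 13540, 9360 of 11974 and 8698 of 12685, and 98 of 13250 were rhythmic. For sites, the block was replicate number within time in nuclear and polysomal RNA, and replicate number alone in the others. Uros and Hmox1 had the lowest depth of the members in total RNA, with 34.4 and 34.7 counts a library.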
